A study of Mus musculus with 7 samples.

Results

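The genes described are the cyclin-dependent kinase inhibitors of the Cip/Kip family (Cdkn1a, Cdkn1b and Cdkn1c) and of the INK4 family (Cdkn2a, Cdkn2b, Cdkn2c and Cdkn2d), the tumor suppressor Trp53, its antagonist Mdm2, and the nuclear lamin Lmnb1. They were chosen by symbol, 10 of the 55450 genes in the count table, and all 10 were among the 17959 genes with enough counts to be tested. The samples were whole dorsal skin of wild type C57BL/6 male mice aged 24 months, treated topically for 5 days under a semi-occlusive dressing with 5 μM ABT-263 (navitoclax, which blocks the survival proteins BCL-2 and BCL-xL; 3 mice, 476 to 478) or with the vehicle DMSO alone (4 mice, 480 to 483). In both groups, hair was clipped and then removed with a depilatory lotion, and the skin was wiped with ethanol before treatment. The study asked whether a senolytic, a drug meant to kill senescent cells, lowers senescence markers in aged skin.

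Cyclin-dependent kinase inhibitors hold cells in the cell cycle's first gap phase. INK4 proteins bind CDK4 and CDK6 and keep them from D-type cyclins, so that the retinoblastoma protein stays active and E2F transcription factors stay silent, while Cip/Kip proteins act on cyclin and CDK complexes, above all those of CDK2. The p53 protein switches on Cdkn1a (p21) after DNA damage and also switches on Mdm2, which marks p53 for degradation. In senescent cells, p16 (from Cdkn2a) and p21 are the usual markers of a lasting arrest, and loss of lamin B1 is a further one. In skin, p16-positive cells accumulate with age.

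The promoter stretches below are shown because they lie at annotated start sites of 3 of these genes, those followed most closely here. They are the 250 bases before the start site, on the gene's own strand, from the RefSeq annotation of GRCm38.p6 (the assembly also called mm10), in which 8 of the 10 genes had a window and those 8 had 11 windows. The windows searched also held 50 bases past the start, and both strands were read. In the upstream start of Cdkn1a, at chr17:29090729-29090978 (plus strand), capitals mark the paired core of a p53 response element (CATG, 6 bases of any kind, CATG), which begins at position -48 from the start. That motif was in 1 of the 11 windows and in 0.712% of all 32851 promoter windows. The other Cdkn1a window, at chr17:29093519-29093768, held 0 such cores. It lies before the start of the coding transcript Cdkn1a-201, at 29093769.
Cdkn1a, upstream start: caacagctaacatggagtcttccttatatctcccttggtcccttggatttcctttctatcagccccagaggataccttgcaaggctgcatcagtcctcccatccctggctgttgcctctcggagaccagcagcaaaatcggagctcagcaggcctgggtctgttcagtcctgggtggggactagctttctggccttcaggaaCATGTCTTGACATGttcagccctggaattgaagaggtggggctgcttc
Cdkn2a has 2 starts on chromosome 4, minus strand. The outer one, at chr4:89294620-89294869, opens the transcript of p19ARF, a protein that blocks MDM2, and capitals mark an E2F motif at position -99. E2F motifs (TTTGGCGC, TTTCGCGC, TTTCCCGC or TTTGCCGC) were in 1 of the 11 windows and in 2.26% of all windows. The inner start, at chr4:89282193-89282442, opens the transcript of p16INK4a, and this stretch held neither motif.
Cdkn2a, p19ARF start: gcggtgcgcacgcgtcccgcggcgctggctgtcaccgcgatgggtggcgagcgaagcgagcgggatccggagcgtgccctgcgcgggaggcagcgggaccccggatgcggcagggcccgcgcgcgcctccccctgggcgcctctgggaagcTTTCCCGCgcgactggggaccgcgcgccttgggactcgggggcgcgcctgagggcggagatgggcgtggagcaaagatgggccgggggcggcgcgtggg
Cdkn2a, p16INK4a start: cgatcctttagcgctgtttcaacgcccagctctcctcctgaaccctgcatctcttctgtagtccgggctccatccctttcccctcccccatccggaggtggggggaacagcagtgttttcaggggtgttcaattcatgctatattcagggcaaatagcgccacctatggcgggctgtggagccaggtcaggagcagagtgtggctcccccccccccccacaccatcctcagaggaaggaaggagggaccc
For Cdkn2c, at chr4:109666757-109667006 (minus strand), capitals mark 3 GC boxes (GGGCGG), a motif found in 8 of the 11 windows and in 35.7% of all windows. The other RefSeq window of Cdkn2c, at its inner start, held 0.
Cdkn2c, distal start: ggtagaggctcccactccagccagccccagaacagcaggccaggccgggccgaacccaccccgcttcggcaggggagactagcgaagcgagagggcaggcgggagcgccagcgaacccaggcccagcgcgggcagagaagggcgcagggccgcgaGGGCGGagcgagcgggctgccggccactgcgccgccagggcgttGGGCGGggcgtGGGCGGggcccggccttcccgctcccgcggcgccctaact
GENCODE M21, used for gene positions here, puts the outer start of Cdkn2c farther upstream, at 109667189, so that the stretch shown lies inside the gene in that annotation, and puts the p19ARF start at 89294653, within the stretch shown for it. A match is a run of letters and not evidence of binding. The count table gives 1 value per gene, so the p16INK4a and p19ARF transcripts of Cdkn2a, of 852 and 895 bases in GENCODE M21, could not be told apart, nor could the 5 annotated transcripts of Cdkn1a.

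The libraries held 20344364 to 43562330 counted read pairs, and the 3 ABT-263 libraries were the largest. Each library was 1 mouse, so p-values measure the spread between mice. Krt14, a keratin that defines epidermis, was at 8427 to 24880 CPM (read counts scaled to library size by TMM normalization) in all mice, and skeletal muscle markers, also present in these samples, summed to 27960 to 74060 CPM. Across the whole table, edgeR's quasi-likelihood test with Benjamini-Hochberg adjustment called 24.2% of genes different between treatments (adjusted p under 0.05), 12.4% higher and 11.7% lower after ABT-263, and in 37.1% the mice of the groups did not overlap. Against that background, 1 of the 10 genes passed (Cdkn2c, higher), and the median log2 fold change of the 10 was 0.19, beside 0.00 over all genes tested. Markers of other cells also moved with treatment: 7 of 12 macrophage, 3 of 5 tested neutrophil, 5 of 9 dermal fibroblast and 7 of 8 endothelial markers were higher, and 3 of 10 skeletal muscle markers were lower. Of 11 tested hair follicle markers, 1 was lower (3 by DESeq2) and all 11 fold changes were negative, with a median of -2.19 on the log2 scale. Single mice weighed heavily in these: the markers summed to 2840 CPM in DMSO mouse 481 and to 39.0 to 47.6 CPM in the other DMSO mice. In ABT-263 mice 476 to 478 the sums were 5.83, 13.4 and 496 CPM. The summed level of macrophage markers was 468 to 1353 CPM after DMSO and 1552 to 4702 CPM after ABT-263. Of the neutrophil markers, Ly6g, Mpo, Camp and Ngp did not have enough counts in enough mice to be tested. Ly6g and Ngp were at 13.98 and 14.69 CPM in ABT-263 mouse 476 and at most 0.253 and 0.123 CPM in any other mouse. In bulk skin, fewer cells of a type and less RNA per cell cannot be told apart, and the part of these cells in the results below was not tested.

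Levels of the 10 genes relative to each other were compared per length, as CPM per kilobase of merged exon. Merged exon includes noncoding transcripts. For Trp53 it was 4.045 kilobases, with the noncoding Trp53-205 at 3275 bases and the coding transcripts at 1771 to 1867 bases. The order below Cdkn1a thus depends on the length used, and other lengths were not tried. Cdkn1a was the most abundant, at 62.9 to 108 CPM per kilobase in the DMSO mice and 56.7 to 85.2 in the ABT-263 mice. By this measure Cdkn2d (p19INK4d) came next, at 14.7 to 17.4 after DMSO and 16.0 to 20.3 after ABT-263. Neither range overlapped that of the next gene in the DMSO mice, whereas from Cdkn1c down through Lmnb1, Trp53, Cdkn1b, Mdm2, Cdkn2b, Cdkn2c and Cdkn2a, each gene's range among DMSO mice overlapped that of its neighbor. Cdkn2a was the lowest in both groups, with a mean of 5.12 ± 2.49 (SD, n = 4) after DMSO and 4.68 ± 2.18 (SD, n = 3) after ABT-263. Cdkn2c went from the ninth to the fifth place in the order of means. Per kilobase, Cdkn1a made up 54.5% to 67.2% of the summed level of the 7 inhibitors after DMSO and 46.0% to 58.3% after ABT-263.

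**Figure D1:**
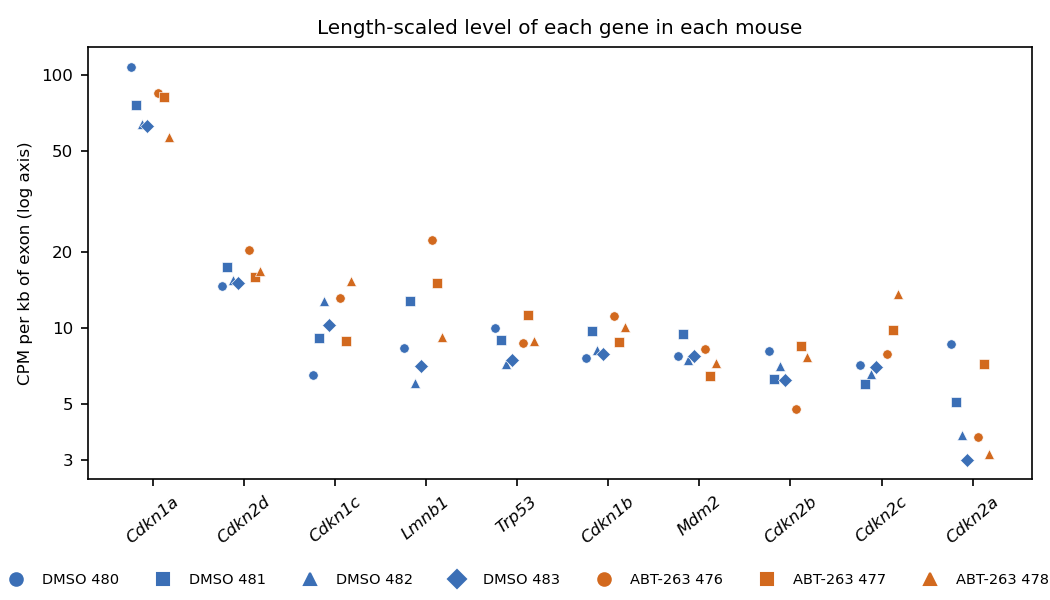
Level of each gene per kilobase of merged exon (log axis) in each of 4 DMSO (blue) and 3 ABT-263 (orange) mice, with a marker shape per mouse and genes ordered by their DMSO mean. Cdkn1a lies above the other 9 genes in every mouse, and Cdkn2a spans 3.01 to 8.62 among DMSO mice.

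Among the Cip/Kip inhibitors, no difference between treatments passed the test. Cdkn1a (ENSMUSG00000023067; GRCm38 chromosome 17, 29090976 to 29100727, plus strand) encodes p21, the p53-induced inhibitor of CDK2. Its level was 384, 270, 229 and 224 CPM in DMSO mice 480 to 483 and 303, 292 and 202 CPM in ABT-263 mice 476 to 478. The lowest value was that of an ABT-263 mouse and the highest that of a DMSO mouse, while the other 2 ABT-263 mice lay above 3 of the 4 DMSO mice. The log2 fold change was -0.06 (standard error 0.24, 95% interval -0.61 to 0.49, adjusted p = 0.878, edgeR), which allows levels after ABT-263 from 0.656 to 1.40 times those after DMSO. An exact permutation test over the mice gave p = 0.857 (two-sided), where the smallest p that 4 mice against 3 allow is 0.0286. The sign was carried by single mice: it was 0.14 without DMSO mouse 480 and 0.11 without ABT-263 mouse 478.

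Cdkn1b (p27, which keeps resting cells out of the cycle; chromosome 6, 134920401 to 134925513) was at 34.7, 44.2, 37.2 and 36.0 CPM in the DMSO mice and at 50.7, 39.98 and 45.7 CPM in the ABT-263 mice. DMSO mouse 481 lay between the ABT-263 mice and the other 3 DMSO mice lay below them. Its log2 fold change of 0.26 (standard error 0.14, 95% interval -0.05 to 0.57, adjusted p = 0.194, edgeR) did not pass. Cdkn1c (p57, an imprinted inhibitor; chromosome 7, 143458339 to 143461050) was at 13.3, 18.7, 26.0 and 20.9 CPM after DMSO and at 26.8, 18.1 and 31.2 CPM after ABT-263. The groups overlapped, and the log2 fold change was 0.36 (standard error 0.26, 95% interval -0.23 to 0.95, adjusted p = 0.328, edgeR). An annotated transcript on the opposite strand, Gm44732, covers 30.7% of the exon bases of Cdkn1c, and the counts were made for the same strand only. On Cdkn1a such overlap (AC167363.2) covers 7.68%.

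Among the INK4 inhibitors, Cdkn2c rose after ABT-263 and the other 3 did not pass the test. Cdkn2a (ENSMUSG00000044303; chromosome 4, 89274471 to 89294653, minus strand) encodes p16INK4a and p19ARF. It had 247, 141, 86 and 86 counted read pairs in DMSO mice 480 to 483 and 121, 334 and 173 in ABT-263 mice 476 to 478, which are 10.1, 5.94, 4.41 and 3.53 CPM and 4.33, 8.42 and 3.72 CPM. In each group 1 mouse, DMSO mouse 480 and ABT-263 mouse 477, stood above the rest, and the groups overlapped fully. The log2 fold change was -0.13 (standard error 0.43, 95% interval -1.11 to 0.85, adjusted p = 0.848, edgeR), so that levels from 0.464 to 1.80 times those after DMSO fall within the interval. Cdkn2a had the widest spread within groups of the 10 genes, with a coefficient of variation of 48.6% among DMSO and 46.6% among ABT-263 mice, beside a median of 20.3% and 20.5% over all genes tested. The sign of its fold change turned without DMSO mouse 480 (0.24), ABT-263 mouse 476 (0.02) or ABT-263 mouse 478 (0.09).

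DMSO mouse 480 and ABT-263 mouse 477, the mice highest in Cdkn2a, also had the highest summed level of basal keratinocyte markers. The summed level of those 8 markers was 31470 CPM in mouse 480 and 36210 CPM in mouse 477, and 14050 to 19740 CPM in the other 5 mice. Suprabasal keratinocyte markers were highest in the same 2 mice, at 46180 and 30140 CPM, and at 8061 to 23100 CPM in the rest. Krt14 and Krt5 made up most of the basal sum. Krt14 was at 21270 CPM in mouse 480 and 24880 CPM in mouse 477, and at 8427 to 10860 CPM elsewhere. Krt5 was at 8190 and 9150 CPM in those mice and at 3356 to 6370 CPM elsewhere. Other basal markers did not all follow. Mouse 480 was the lowest DMSO mouse in Krt15 (1099 CPM), Col17a1 (358 CPM) and Dst (245 CPM) and the highest in Itga6 (75.5 CPM). Mouse 477 was the highest ABT-263 mouse in each of these. Mouse 480 was also the highest in Cdkn1a, and ABT-263 mouse 476, second in Cdkn1a, had the lowest basal keratinocyte sum. The part of the epidermal share in these levels was not tested.

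Cdkn2b (p15, induced by TGF-β; chromosome 4, 89306299 to 89311039), the neighbor of Cdkn2a, was at 11.3, 8.76, 9.80 and 8.67 CPM after DMSO and at 6.65, 11.8 and 10.7 CPM after ABT-263. The group means were 9.62 (± 1.20 SD over 4 mice) and 9.72 CPM (± 2.72 SD over 3 mice), and the log2 fold change was 0.02 (SE 0.23, 95% interval -0.50 to 0.54, adjusted p = 0.965, edgeR). The ABT-263 mice held both the lowest and the highest value.

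Cdkn2c (ENSMUSG00000028551; chromosome 4, 109660876 to 109667189, minus strand) encodes p18, an INK4 inhibitor that is expressed as cells differentiate and whose gene E2F factors can induce. It was at 19.2, 16.1, 17.6 and 18.7 CPM in the DMSO mice and at 21.1, 26.4 and 36.8 CPM in the ABT-263 mice. All 3 ABT-263 mice lay above all 4 DMSO mice, which 18.7% of all genes tested also showed, and mouse 478 was well above the others. The level went from a mean of 17.9 CPM (± 1.39 SD over 4 mice) to 28.1 CPM (± 7.94 SD over 3 mice), and its log2 fold change was 0.65 (SE 0.19, 95% interval 0.21 to 1.09, adjusted p = 0.0425, edgeR). An exact permutation test gave p = 0.0286, the smallest possible. The direction was the same in every fit, but the call was close to the threshold. It held without ABT-263 mouse 476 (0.82, adjusted p = 0.0265, edgeR) and was lost without any other single mouse, with adjusted p-values from edgeR of 0.0554 to 0.137 and the smallest fold change, 0.41, without ABT-263 mouse 478. It was also lost with counts thinned to the smallest library (adjusted p = 0.0542, edgeR) and with protein-coding genes only (adjusted p = 0.0534, edgeR), and held by DESeq2 (adjusted p = 0.0190). Mouse 478 also had the highest summed dermal fibroblast markers, at 14410 CPM, and the highest summed adipocyte markers, at 3793 CPM. The fibroblast sum was 10010 CPM in mouse 476, 8752 CPM in mouse 477 and 4316 to 6239 CPM in DMSO mice. The order of mice 476 and 477 differed between fibroblast markers. Col3a1 was at 3676 CPM in mouse 476 and 2128 CPM in mouse 477, Col1a1 at 2389 and 2879 CPM, and Col1a2 at 1781 and 2349 CPM. The part of these cells in the rise was not tested.

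Cdkn2d (p19INK4d; chromosome 9, 21288410 to 21291407) varied little, at 23.2, 27.3, 24.4 and 23.8 CPM after DMSO and 32.0, 25.1 and 26.5 CPM after ABT-263. Its log2 fold change was 0.18 (standard error 0.13, 95% interval -0.13 to 0.48, adjusted p = 0.363, edgeR). Summed per kilobase, the 4 INK4 genes were at 31.3 to 38.6 after DMSO and 36.7 to 41.5 after ABT-263, and the 3 Cip/Kip genes at 81.1 to 122 and 82.1 to 109.5, with overlap in both families.

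**Figure D2:**
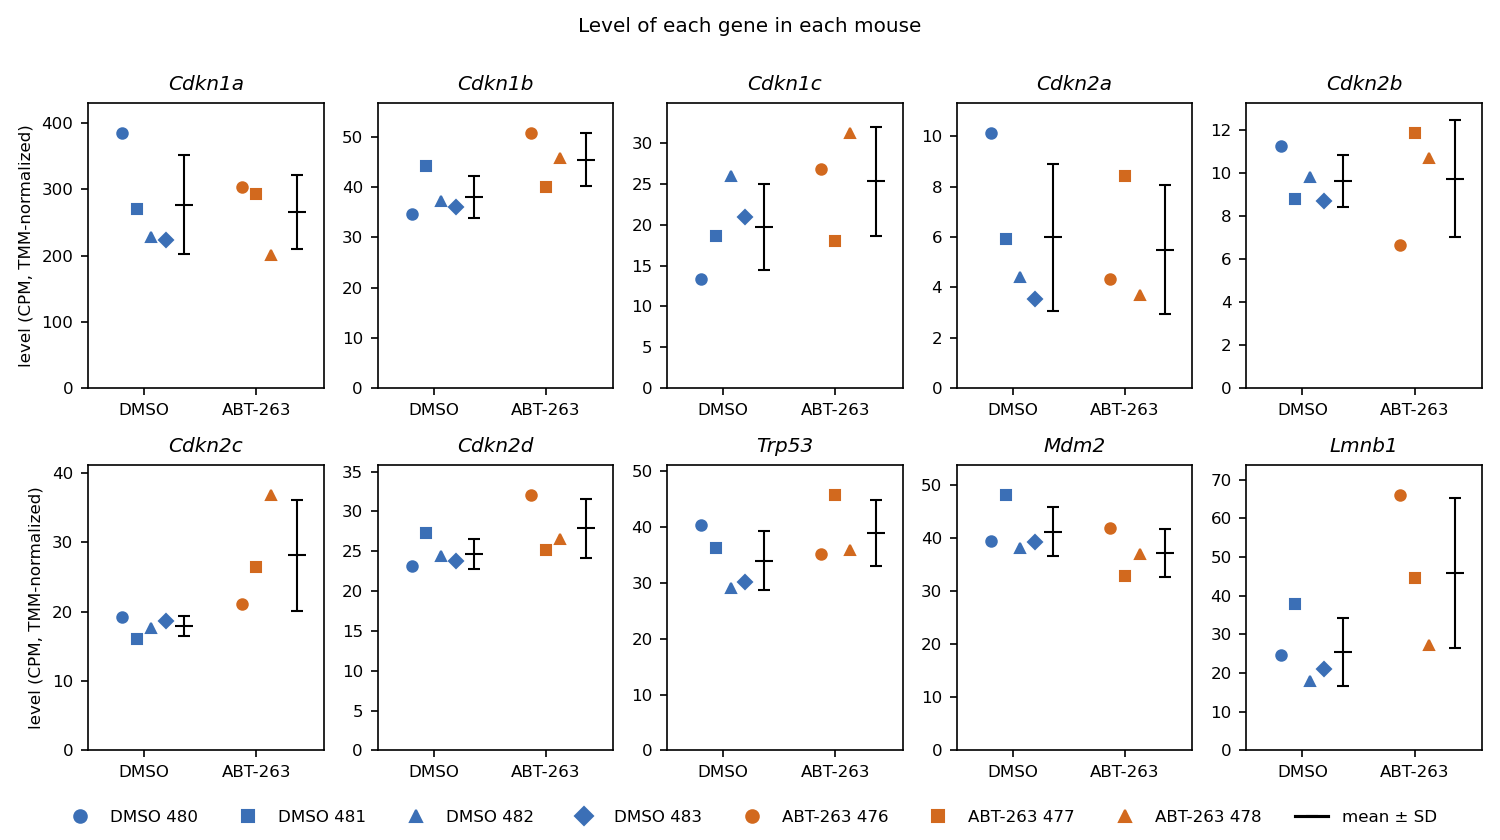
TMM-normalized level (CPM) of each of the 10 genes in 4 DMSO (blue) and 3 ABT-263 (orange) mice, with a marker shape per mouse and the group mean ± SD in black, and every axis starts at 0. The groups are apart only for Cdkn2c, at 16.1 to 19.2 CPM against 21.1 to 36.8 CPM, and overlap for the other 9 genes.

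Neither Trp53 nor Mdm2 differed past the threshold. Trp53 (ENSMUSG00000059552; chromosome 11, 69580359 to 69591873, plus strand), the gene of the transcription factor p53, was at 40.4, 36.3, 29.2 and 30.2 CPM in the DMSO mice and at 35.1, 45.7 and 35.9 CPM in the ABT-263 mice. Its highest value was in ABT-263 mouse 477 and its second highest in DMSO mouse 480, and the log2 fold change was 0.19 (standard error 0.16, 95% interval -0.18 to 0.57, adjusted p = 0.404, edgeR). Mdm2 (ENSMUSG00000020184; chromosome 10, 117688875 to 117710758, minus strand), both a target and the ubiquitin ligase of p53, was at 39.5, 48.0, 38.1 and 39.2 CPM after DMSO and at 41.9, 32.8 and 37.0 CPM after ABT-263. DMSO mouse 481 was the highest and ABT-263 mouse 477, the mouse highest in Trp53, was the lowest. The log2 fold change of Mdm2 was -0.15 (standard error 0.14, 95% interval -0.46 to 0.17, adjusted p = 0.459, edgeR), and with each mouse left out it lay between -0.23 and -0.04.

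Lmnb1 (ENSMUSG00000024590; chromosome 18, 56707813 to 56753424, plus strand) encodes lamin B1, a filament of the inner nuclear envelope that senescent cells lose. It was at 24.8, 37.8, 17.9 and 20.95 CPM in the DMSO mice and at 65.9, 44.5 and 27.2 CPM in the ABT-263 mice. ABT-263 mouse 478 lay below DMSO mouse 481, and the other ABT-263 mice lay above every DMSO mouse. Its mean was 25.4 CPM (± 8.77 SD over 4 mice) in the DMSO group and 45.9 CPM (± 19.4 SD over 3 mice) in the ABT-263 group. The log2 fold change of 0.85 (standard error 0.34, 95% interval 0.07 to 1.64) was the largest of the 10, with an unadjusted p of 0.0368 and an adjusted p of 0.102 (edgeR), so the call was not made. It was 0.51 without ABT-263 mouse 476 and 1.13 without ABT-263 mouse 478, and the adjusted p with each mouse left out was 0.0563 to 0.324 (edgeR). Mouse 476 also had the highest summed markers of macrophages (4702 CPM) and endothelium (810 CPM). It was highest in neutrophil markers too, at 8338 CPM against 5098 and 5563 CPM in the other ABT-263 mice. S100a8 and S100a9 made up most of these sums, at 2912 and 5016 CPM in mouse 476. Other neutrophil markers differed more: Retnlg was at 232 CPM in mouse 476 against 2.09 and 3.03 CPM, and Csf3r at 78.0 CPM against 12.4 and 10.7 CPM. The T cell sum of mouse 476 was 83.4 CPM, against 26.2 to 55.9 CPM in the other 6 mice. DMSO mouse 481 had the most hair follicle marker RNA, at 2840 CPM against 39.0 to 47.6 CPM in the other DMSO mice. In DMSO mice 480 to 483 the macrophage sums were 1296, 468, 1353 and 994.5 CPM, and the neutrophil sums 1821, 99.9, 1381 and 552 CPM. In ABT-263 mice 476 to 478 the macrophage sums were 4702, 1552 and 2222 CPM, and the hair follicle sums 5.83, 13.4 and 496 CPM. The part of these cell types in the Lmnb1 level was not tested.

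**Figure D3:**
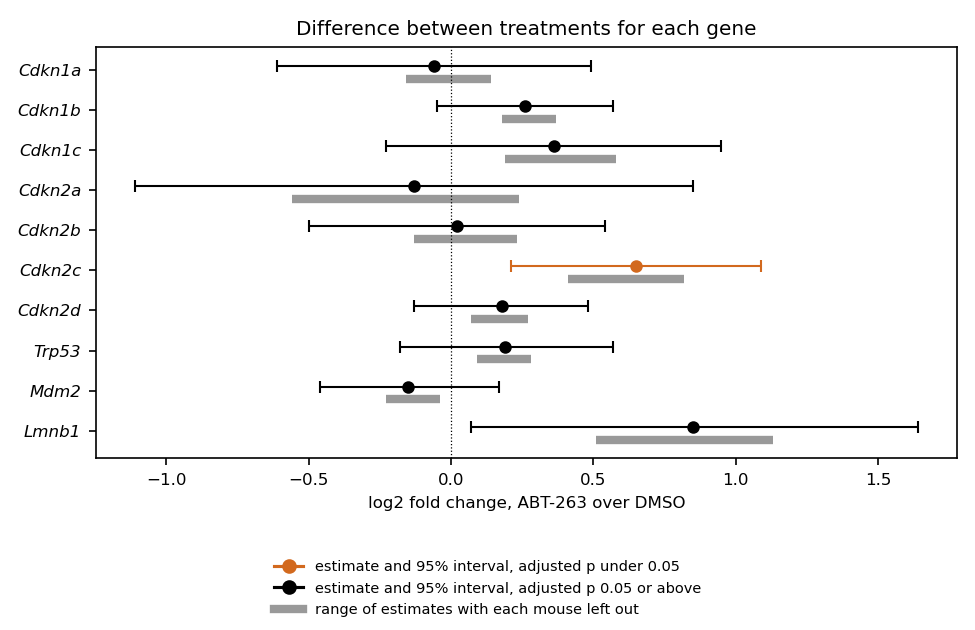
Log2 fold change of each gene, ABT-263 over DMSO, with its 95% interval from edgeR (orange, adjusted p under 0.05; black, not) and, as a grey bar, the range of estimates with each of the 7 mice left out. The interval of Cdkn2c, 0.21 to 1.09, and that of Lmnb1, 0.07 to 1.64, lie above 0, and those of the other 8 genes include it.

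The genes with the most similar pattern over the 7 mice were found by the mean absolute difference of centered log2 levels, over 13679 other protein-coding genes. For Cdkn1a they were Asl, a urea cycle enzyme (0.0773), the splicing factor Srsf9 (0.0903) and the Ras-association gene Rassf1 (0.0930), against a median of 0.374 over all those genes. For Trp53 they were the RNA-binding protein gene Khsrp (0.0444), Ftsj3, of ribosome assembly (0.0605), and the DNA glycosylase gene Tdg (0.0606), against a median of 0.333. For Lmnb1 they were Itgax, the CD11c integrin of dendritic cells and some macrophages (0.177), the actin regulator Evl (0.182) and Pi15 (0.192), against a median of 0.573. The 3 genes nearest to Lmnb1 were farther from it than those nearest to Cdkn1a or Trp53, but distances were not scaled to a gene's spread. The highest level over the lowest among the 7 mice was 3.68 for Lmnb1, 1.91 for Cdkn1a and 1.57 for Trp53. Of the 9 nearest genes, Pi15 was called different between treatments (log2 fold change 1.11, adjusted p = 0.0359, edgeR).

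Beyond the 10 genes, 167 related genes on 7 lists (targets and regulators of p53, cyclins and CDKs, INK4 locus regulators, turnover of p27 and p21, nuclear envelope, and proliferation) were all tested. Of these, 10 were higher and 14 lower at an adjusted p under 0.05 (edgeR), 14.4% beside 24.2% of all genes, and their median log2 fold change was -0.03. The count lay between 10, without DMSO mouse 482 or without ABT-263 mouse 478, and 27 with each mouse left out, and was 13 without DMSO mouse 483 and 13 without ABT-263 mouse 476. By list, the share called was 12.2% of p53 targets, 20% of p53 regulators, 14.8% of cyclins and CDKs, and 16% of INK4 locus regulators. It was 26.7% for turnover of p27 and p21, 15.8% for the nuclear envelope and 0% for proliferation, beside the same 24.2% of all genes.

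Of 41 p53 target genes other than Cdkn1a and Mdm2, 5 were higher after ABT-263, 36 did not pass and 0 were lower (edgeR; 12 higher and 1 lower at an unadjusted p under 0.05, and 8 higher and 1 lower by DESeq2). Those 5 were 12.2% of the list, close to the 12.4% of all genes tested that were higher, while 11.7% of all were lower. The median log2 fold change of the 41 was 0.17. Tgfa, a ligand of the EGF receptor, rose from a mean of 14.1 CPM (± 5.04 SD over 4 mice) to 41.8 CPM (± 14.5 SD over 3 mice), and its log2 fold change was 1.57 (adjusted p = 0.0138, edgeR). Fas, a death receptor, was at 3.64 to 5.35 CPM in the DMSO mice and at 26.96, 7.01 and 10.5 CPM in the ABT-263 mice (log2 fold change 1.61, adjusted p = 0.0322, edgeR). The stress-induced Sesn2, which restrains mTORC1, rose by 0.66 and the polo-like kinase gene Plk2 by 0.78 on the log2 scale. Ddit4, also an mTORC1 inhibitor and named after its values were seen, was the other one, at 62.0 to 73.2 CPM against 86.6 to 189 CPM. Over the whole list, all ABT-263 mice lay above all DMSO mice in 8 of the 41 genes and below them in 1, where 18.7% and 18.4% of all genes tested did so. Among the 4 named by rule, Tgfa passed in 7 of 7 fits that left out 1 mouse, Sesn2 and Plk2 in 2 and Fas in 1, and the list's count fell to 1 without DMSO mouse 482 or DMSO mouse 483.

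Of 20 regulators and relatives of p53, 4 were lower, 16 did not pass and 0 were higher (edgeR; 5 lower and 0 higher at an unadjusted p under 0.05, and 4 lower and 0 higher by DESeq2). Those 4 were 20% of the list, beside 11.7% of all genes tested that were lower and 12.4% that were higher. Crebbp, an acetyltransferase that serves as a p53 coactivator, fell from a mean of 107 CPM (± 8.52 SD over 4 mice) to 47.7 CPM (± 10.6 SD over 3 mice), and its log2 fold change was -1.16 (adjusted p = 0.00723, edgeR). Hipk2, a kinase that phosphorylates p53, fell by 0.91 on the log2 scale (adjusted p = 0.0115, edgeR), from 18.8 to 25.2 CPM down to 10.6 to 14.0 CPM. Cop1, a ubiquitin ligase for p53, fell by 0.50 and Wrap53, the antisense neighbor of Trp53, by 0.55. Crebbp and Hipk2 passed whichever mouse was left out, and Cop1 and Wrap53 in 1 of 7 such fits each. The count was 2 without any one of mice 481, 482, 483, 476 and 478.

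Of 27 cyclins, CDKs, E2F factors and pocket proteins, the machinery on which these inhibitors act, 1 was higher and 3 were lower. Ccnd2, the cyclin D2 partner of CDK4 and CDK6, was at 286.5, 592, 340 and 372 CPM in the DMSO mice and at 105, 124 and 141 CPM in the ABT-263 mice. No ABT-263 mouse reached the lowest DMSO mouse, and the log2 fold change was -1.69 (standard error 0.27, adjusted p = 0.00798, edgeR). E2f1 fell by 0.73 (37.7 ± 3.22 to 22.8 ± 4.35 CPM, mean ± SD, adjusted p = 0.0169, edgeR) and E2f2 by 0.78 on the log2 scale (adjusted p = 0.0260, edgeR). Rbl2, the p130 pocket protein of resting cells, rose by 0.53 (adjusted p = 0.0453, edgeR). With each mouse left out, Ccnd2 passed in 7 of 7 fits, E2f1 in 6, E2f2 in 3 and Rbl2 in 1, and the list's count was 1 without ABT-263 mouse 478.

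**Figure D4:**
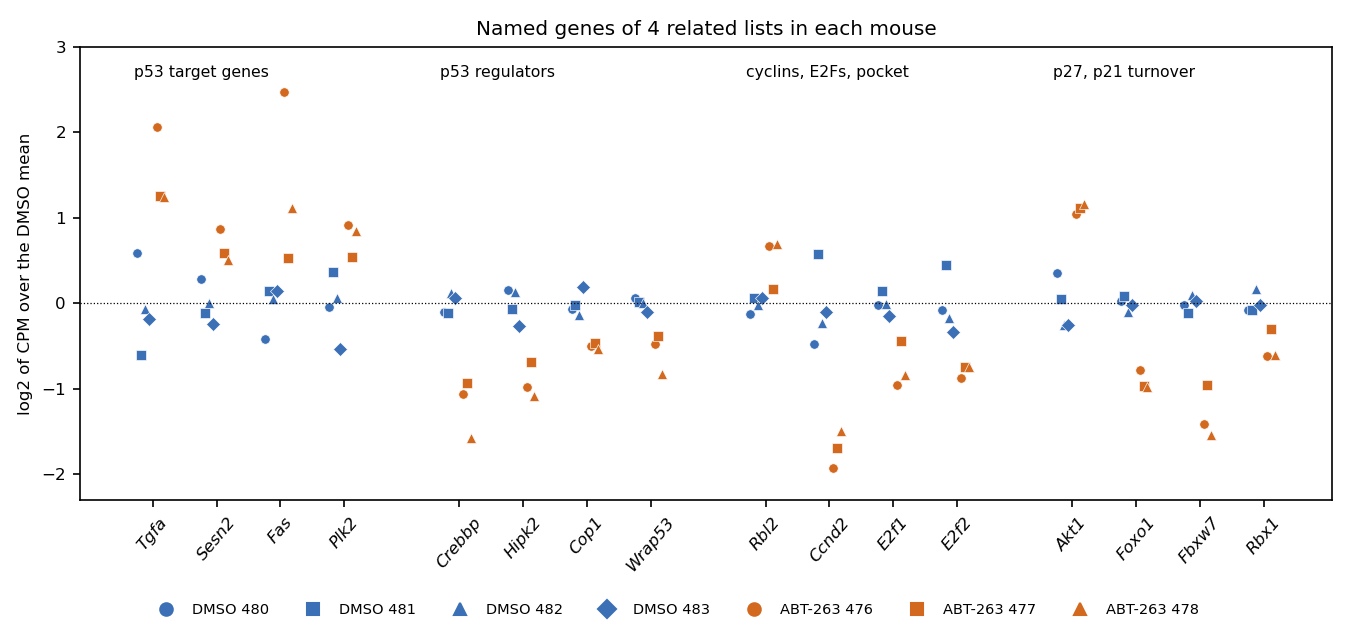
Level of each named gene of 4 lists in each mouse, as log2 of its CPM over the DMSO mean (blue, 4 DMSO mice; orange, 3 ABT-263 mice). The 16 genes were picked among called genes, so that the groups lie apart follows from the choice. Over the 4 whole lists the groups did not overlap in 9 of 41, 4 of 20, 8 of 27 and 6 of 15 genes, beside 37.1% of all genes tested, and Fas spans 7.01 to 26.96 CPM among ABT-263 mice.

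Of 25 regulators of the INK4 locus, 1 was higher and 3 were lower. Ets1, a factor that can induce p16, rose from a mean of 10.5 CPM (± 0.731 SD over 4 mice) to 27.2 CPM (± 10.4 SD over 3 mice), and its log2 fold change was 1.37 (adjusted p = 0.00980, edgeR). Polycomb complexes can silence the locus. The Polycomb genes Cbx6, Ezh2 and Cbx8 fell by 1.10 (adjusted p = 0.00578), 0.62 (adjusted p = 0.0231) and 0.63 (adjusted p = 0.0350) on the log2 scale (edgeR). Cbx7 (-0.21, adjusted p = 0.463) and Bmi1 (0.54, adjusted p = 0.206), also Polycomb genes, did not pass (edgeR). Cbx6 and Ets1 passed whichever mouse was left out, Ezh2 in 4 of 7 such fits and Cbx8 in 2. The list's count was 2 without DMSO mouse 482 or ABT-263 mouse 478.

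Of 15 genes for turnover of p27 and p21, 1 was higher and 3 were lower. Akt1, a kinase that phosphorylates p27 and FOXO factors, rose from 60.3 to 91.8 CPM in the DMSO mice to 148 to 161 CPM in the ABT-263 mice, a log2 fold change of 1.11 (adjusted p = 0.00733, edgeR). Foxo1, a factor that can induce Cdkn1b, fell from a mean of 78.3 CPM (± 4.29 SD over 4 mice) to 41.8 CPM (± 3.27 SD over 3 mice), and its log2 fold change was -0.90 (adjusted p = 0.00622, edgeR). Fbxw7, the substrate receptor for cyclin E, fell by 1.28 on the log2 scale (adjusted p = 0.00623, edgeR), and Rbx1, the RING subunit of cullin ligases, by 0.50 (adjusted p = 0.0322, edgeR). The first 3 of these passed with each mouse left out, and Rbx1 in 2 of 7 such fits. The processed pseudogene Rbx1-ps had 61.3% to 76.8% as many read pairs as Rbx1, so the split of reads between them is uncertain.

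Of 19 other nuclear envelope genes, 2 were higher and 1 was lower. Zmpste24, the protease that matures lamin A, rose by 0.51 (adjusted p = 0.0265, edgeR), Ankle2, of nuclear envelope reassembly, rose by 0.41 (adjusted p = 0.0410, edgeR), and Banf1, which bridges DNA and lamina, fell by 0.74 on the log2 scale (adjusted p = 0.0210, edgeR). The count was 0 without DMSO mouse 482, ABT-263 mouse 476 or ABT-263 mouse 478. Of 20 proliferation genes, 0 passed by edgeR (3 at an unadjusted p under 0.05), 1 was lower by DESeq2, 10 fold changes were positive and 10 negative, and the median was -0.06. The edgeR count was 2 without ABT-263 mouse 477, 1 without DMSO mouse 481 and 0 without any other single mouse. Their summed level was 588 to 856 CPM after DMSO and 532 to 913 CPM after ABT-263, with ABT-263 mouse 477 the highest of all mice.

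**Figure D5:**
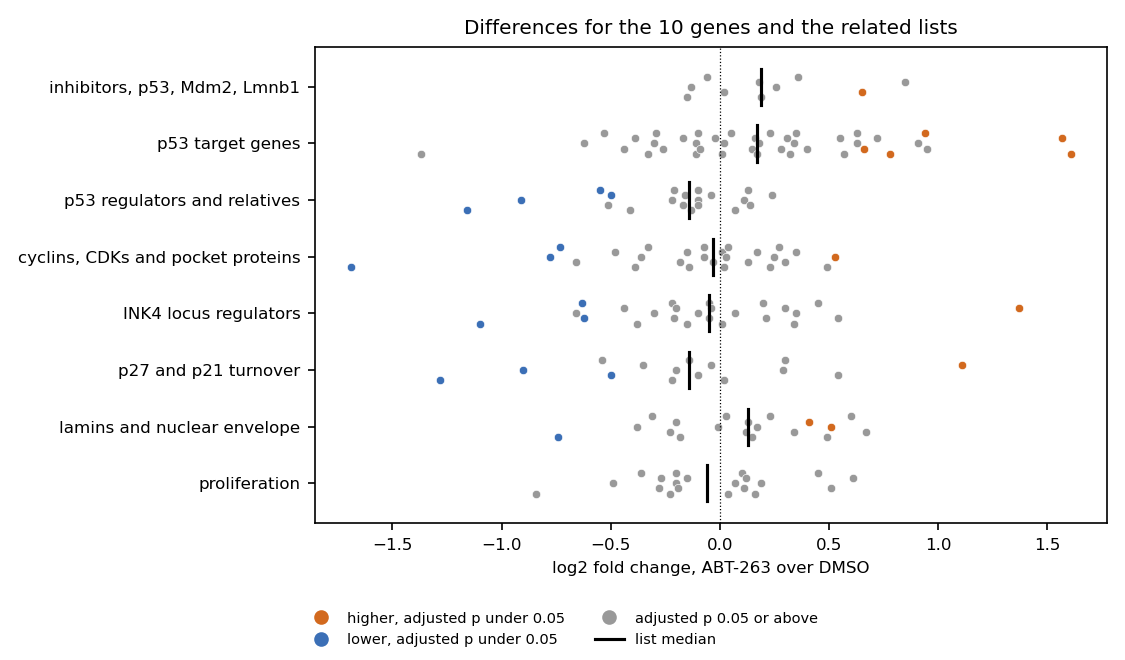
Log2 fold change, ABT-263 over DMSO, of each of the 10 genes and of each tested gene on the 7 related lists (members of the 10 left out of the lists), colored by call at an adjusted p of 0.05 (edgeR) with the list median as a black bar. Medians lie between -0.14 and 0.19. Colored points lie on both sides of 0 except for the p53 regulators (all 4 lower, 20% of the list) and the p53 targets (all 5 higher, 12.2%). Of all genes tested, 11.7% were lower and 12.4% higher. The 10 genes hold 1 colored point and proliferation 0.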

How the data were processed

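RNA of whole dorsal skin from 7 mice (1 library each; 4 DMSO, 3 ABT-263) was sequenced by the authors, who, per their methods and processing notes, aligned reads to mm10 with STAR 2.7.9a and counted uniquely aligned proper pairs on the same strand per Ensembl gene (build 109, mitochondrial genes left out) with featureCounts of Subread 1.6.2. The deposited counts are raw. A second deposited table, of variance-stabilized values made from the same counts, was not used. Gene symbols, positions and lengths were taken from the GENCODE M21 annotation (GRCm38), with entries for 55190 of 55450 identifiers.

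In R 4.3.3, edgeR 4.0.16 (TMM, filterByExpr, robust quasi-likelihood test, two-sided) was fitted to all 7 mice, and p-values of the 17959 tested genes were adjusted by Benjamini-Hochberg (threshold 0.05). No batch is labelled. Levels are TMM-normalized CPM, and log2 levels used a pseudocount of 0.5. Scripts were tested on simulated data. The genes and lists were chosen with earlier results of these data known. Named from each list were up to 4 called genes in each direction with the smallest p, and the 3 genes nearest in pattern to Cdkn1a, Trp53 and Lmnb1. Alternatives were DESeq2 1.42.0 (Wald test), its size factors in edgeR, 2 other count filters, counts thinned to 20344364 per library, protein-coding genes only, trends on length and GC content removed (mgcv 1.9.3), CPM without TMM, and each mouse left out.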

Additional observations from a re-analysis of the deposited data

Results flagged for a closer look

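Among the 4 DMSO mice, 50 levels and sums were screened by Dixon's ratio (the gap of an extreme mouse to the next over the whole range), and 4 exceeded the 95% critical value, where chance gives 2.5. Mdm2 was at 48.0 CPM in mouse 481 and at 38.1 to 39.5 CPM in the others (ratio 0.859). The summed level of cyclins, CDKs and pocket proteins was 1544 CPM in mouse 481 and 1146 to 1169 CPM in the others (ratio 0.941), and Ccnd2 alone was at 592 CPM in that mouse. Hair follicle markers summed to 2840 CPM in mouse 481 and to 39.0 to 47.6 CPM in the others (ratio 0.997). Basal keratinocyte markers summed to 31470 CPM in mouse 480 and to 18600 to 19740 CPM in the others (ratio 0.911). Groups of 3 ABT-263 mice were not examined in this way.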

How the results depend on the processing

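No paired analysis was possible because the treatment groups share no mouse numbers. The count of all genes called was 4342, and 1735 to 4169 with each mouse left out. The count among the 10 genes was 1, and 0 with counts thinned, 0 with protein-coding genes only, and 0 to 1 with each mouse left out. The log2 fold change of Cdkn2c was 0.62 with counts thinned (adjusted p = 0.0542, edgeR), 0.61 with protein-coding genes only (adjusted p = 0.0534, edgeR) and 0.41 to 0.82 with each mouse left out. Fold changes near 0 turned sign: that of Cdkn1a ran from -0.16 to 0.14 with each mouse left out, that of Cdkn2a from -0.56 to 0.24 and was 0.05 with trends on length and GC removed, and that of Cdkn2b ran from -0.13 to 0.23 and was -0.02 with counts thinned and -0.02 with protein-coding genes only. None of these passed the test, and the cause of the turns was not tested. The count on the 7 lists was 24, and 10 to 27 with each mouse left out. Every one of the 23 named list genes kept its direction in the 14 other fits, with 9 to 23 of them past the threshold. No mean level of the 10 genes moved by more than 1 SD without TMM. Each of the 10 genes had at least 86 read pairs in every library.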

Other observations

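A processed pseudogene of Trp53, Trp53-ps (chromosome 17, 54419680 to 54420841), was looked at after its values were seen. It had 5 to 13 counted read pairs in the DMSO mice and 27 to 39 in the ABT-263 mice, which are 0.257 to 0.548 CPM and 0.838 to 0.965 CPM. All ABT-263 mice lay above all DMSO mice, which 18.7% of all genes tested also showed. The log2 fold change of 1.18 did not pass the threshold (adjusted p = 0.0623, edgeR). Its count was 0.710% to 2.75% of that of Trp53 in the same mouse. The pseudogene Rbx1-ps, at 48.8 to 59.2 CPM in the DMSO mice and 36.0 to 45.8 CPM in the ABT-263 mice, differed by -0.40 on the log2 scale (adjusted p = 0.0576, edgeR).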
